A study of Mus musculus with 8 samples.

Results

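Osteopontin (Spp1), galectin-1 (Lgals1), galectin-3 (Lgals3) and the CD44 receptor (Cd44) were followed across the immune cells of mouse melanomas. They are 4 of the 27998 genes in the matrix and were taken by symbol. The genes were selected on their UMI levels per library and gated cell class in these same data, so every level and ratio of a member is a description and none is tested. The question of the experiment was how tumor-infiltrating leukocytes differ after adoptive cell transfer (ACT) of T cells that secrete different immunomodulators. C57BL/6 mice carried subcutaneous B16-OVA tumors, a melanoma line transduced to express ovalbumin, and received no lymphodepletion. OT1 CD8+ T cells carry a transgenic receptor for an ovalbumin peptide, and those infused were mostly of a CD44+ central memory type. CD45+ cells, enriched in CD8+ cells, were sorted from tumors pooled over several mice per condition and sequenced with a 5′ single-cell kit.

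Each of the 8 groups was 1 library. Untransduced ACT (OT1 cells with no secreted product) was sampled on days 5 and 12 after transfer. PD1d/IL-2v ACT used OT1 cells that secrete a PD-1 decoy (PD1d) and an interleukin-2 variant that does not bind CD25 (IL-2v), and was sampled on day 12. PD1d/IL-33 ACT used OT1 cells that secrete the decoy and interleukin-33, also on day 12. Orthogonal ACT (PD1d/IL-2v/IL-33) used a mixture of both engineered cells and was sampled on days 5, 12 and 26. Tumors of non-treated mice were sampled on day 5 only. Transferred and endogenous CD8+ T cells were not separated in these libraries.

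Osteopontin is a secreted, matrix-associated glycoprotein and cytokine that binds integrins and CD44, and it is known as a product of tumor macrophages and of activated T and NK cells. Galectins are lectins that bind β-galactoside sugars on cell surface glycoproteins such as CD45 and CD43. Galectin-1 is best known for effects on T cell survival and is abundant in activated and regulatory T cells, and galectin-3 is a classical product of macrophages that also binds LAG-3. CD44 is the main receptor for hyaluronan, one of the receptors for osteopontin, and a marker of antigen-experienced T cells.

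The matrix held 15700 cell barcodes and 98669511 unique molecular identifiers (UMIs, each a counted RNA molecule), and 12828 cells passed the filter of 500 to 6000 genes, 2000 to 40000 UMIs, 5 to 60% ribosomal and under 10% mitochondrial UMIs. Libraries kept between 202 cells (untransduced ACT, day 12) and 3655 cells (orthogonal ACT, day 26), with median depths of 4403.5 to 7297 UMIs per cell. Between libraries, 143 barcode sequences occurred in 2 libraries and 0 in more. The untransduced day 12 library stood apart with the fewest cells and the highest summed melanoma marker level (89.4 CPM, UMIs per 1000000 UMIs, against 0.291 in orthogonal ACT on day 12). Cells were gated by raw marker UMIs into CD8 T (5108 cells), CD4 T (1205), NK (2455), myeloid (1220) and B cells (131), with 2709 left over. Markers that the gates did not use were read as a check: Klrd1 and Eomes were at 737 and 252 CPM in NK cells against 8.98 and 0.352 CPM in myeloid cells, and Cd68 and Fcgr1 were at 528 and 239 CPM in myeloid cells against 13.7 and 0.396 CPM in NK cells. CD8 T cells also carried Klrd1, at 417 CPM. No marker outside the gate was at hand for CD8 T cells, and Foxp3, at 265 CPM in CD4 T and 7.43 CPM in CD8 T cells, marks only some CD4 T cells. CD8 T cells with 3 or more UMIs summed over the granzyme genes Gzmc to Gzmg were called Gzm high (192 cells), and myeloid cells with 10 or more UMIs of C1qa, C1qb and C1qc were called C1q high (214 cells). A level is the sum of a gene's UMIs in a class of 1 library in CPM of all UMIs of that class, and a class needed 20 cells. Ratios are log2 of 2 such levels after adding 10 CPM to each. Intervals are 95% and cover counting error only, with no estimate of the spread between mice.

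Start sites and upstream letters are given because the data below show Spp1 and Lgals3 high in the same granzyme-rich cells and Cd44 not. Upstream windows of 250 bases matched 3 of the 4 members in RefSeq (GRCm38.p6), and each line runs 5′ to 3′ on the gene's own strand and ends at the base before the start site. The Spp1 window is chr5:104434861-104435110 (+), the Lgals3 window chr14:47373610-47373859 (+) and the Cd44 window chr2:102901666-102901915 (-).
Spp1: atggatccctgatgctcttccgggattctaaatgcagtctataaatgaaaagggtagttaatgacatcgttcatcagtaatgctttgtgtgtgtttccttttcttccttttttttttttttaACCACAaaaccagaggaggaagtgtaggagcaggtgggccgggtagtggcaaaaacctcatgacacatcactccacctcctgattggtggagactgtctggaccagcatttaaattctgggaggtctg
Lgals3: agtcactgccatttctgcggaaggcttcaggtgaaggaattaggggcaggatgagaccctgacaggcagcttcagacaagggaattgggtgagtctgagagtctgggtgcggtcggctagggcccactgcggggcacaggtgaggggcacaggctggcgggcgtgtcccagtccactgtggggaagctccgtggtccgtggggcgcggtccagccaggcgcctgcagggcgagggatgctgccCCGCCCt
Cd44: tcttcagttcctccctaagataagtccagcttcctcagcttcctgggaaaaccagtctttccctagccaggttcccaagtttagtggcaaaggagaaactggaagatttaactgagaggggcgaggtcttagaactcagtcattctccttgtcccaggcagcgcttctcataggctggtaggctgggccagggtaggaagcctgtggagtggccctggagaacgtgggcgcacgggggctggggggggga
Capitals mark matches, on either strand, to the 4 motifs searched, which were TTCNNNGAA (STAT type), ACCACA (RUNX type), TGAGTCA (AP-1 type) and GGGCGG (Sp1 type). Spp1 held ACCACA 128 to 123 bases upstream, a motif found in 14.2% of 27025 windows of the same length. RefSeq lists another Spp1 start site downstream of this one, and its window at chr5:104435942-104436191 (+), not shown, held 0 matches to the 4 motifs. Lgals3 held GGGCGG on the other strand 7 to 2 bases upstream, as did 32.9% of windows at some position. None of the 4 letter strings was in the Cd44 window, and TTCNNNGAA and TGAGTCA, present in 7.18% and 4.43% of windows, were in none of the windows shown. A match describes letters and is neither a site nor a cause. RefSeq places the Spp1 gene (ENSMUSG00000029304) at chr5:104435111-104441053, Lgals1 (ENSMUSG00000068220) at chr15:78926725-78930465, Lgals3 (ENSMUSG00000050335) at chr14:47373860-47386167 and Cd44 (ENSMUSG00000005087) at chr2:102811141-102901669.

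Spp1, the ligand among the members, was carried by CD8 T, NK and myeloid cells, and its level in each class differed widely between libraries. In CD8 T cells the Spp1 level was 76.9 CPM in untransduced ACT on day 5 and 123 on day 12, 241 in PD1d/IL-2v ACT, 3.60 in PD1d/IL-33 ACT, 45.5, 199.98 and 33.7 in orthogonal ACT on days 5, 12 and 26, and 2.18 in non-treated tumors. The libraries whose T cells secreted IL-2v stood highest on day 12, and PD1d/IL-33 ACT and non-treated tumors were near 0, with 8 UMIs in 370 cells and 1 UMI in 78 cells. The intervals of PD1d/IL-2v ACT (229 to 254) and orthogonal ACT on day 12 (190 to 211) did not meet, but 1 cell held 327 of the 1374 UMIs in PD1d/IL-2v ACT, and without it the level there was 185 CPM. The untransduced day 12 value is less certain, because 25 of its 34 UMIs came from 1 of 42 cells and the level was 33.9 CPM without that cell.

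In NK cells the same 2 day 12 libraries were highest. Their Spp1 level was 26.7 and 35.6 CPM in untransduced ACT on days 5 and 12, 215 in PD1d/IL-2v ACT, 13.3 in PD1d/IL-33 ACT, 78.1, 339 and 5.86 in orthogonal ACT on days 5, 12 and 26, and 12.9 in non-treated tumors. Orthogonal ACT on day 12 was highest in NK cells, above PD1d/IL-2v ACT, and the day 26 value rests on 2 UMIs. Myeloid cells had Spp1 levels of 82.9 CPM in untransduced ACT on day 5, 351 in PD1d/IL-2v ACT, 12.9 in PD1d/IL-33 ACT (3 UMIs), 114, 186 and 107 in orthogonal ACT on days 5, 12 and 26, and 592 in non-treated tumors. The high non-treated value came mostly from 1 cell, which held 103 of 128 UMIs, and without it the level was 119.9 CPM.

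CD4 T cells held almost no Spp1. The levels were 5.02 CPM in untransduced ACT on day 5, 1.52 and 2.85 in orthogonal ACT on days 5 and 26, and 0 UMIs in untransduced and orthogonal ACT on day 12 and in non-treated tumors. PD1d/IL-2v ACT reached 99.9 CPM and PD1d/IL-33 ACT 23.2 CPM, but 1 cell held 115 of 124 UMIs in the former and 1 cell held 8 of 9 UMIs in the latter. B cells held 0 Spp1 UMIs in 131 cells, which allows up to 2.29% of cells with a Spp1 UMI at this depth (3 of 131) and sets no limit on cells that express the gene. By the median over libraries the order of Spp1 levels was Gzm high CD8 T cells (980.1 CPM, 2 libraries), C1q high myeloid cells (519, 5 libraries), all myeloid cells (114), all CD8 T cells (61.2), NK cells (31.2) and CD4 T cells (2.19). These medians rest on different libraries, and the Gzm high one on 2 day 12 libraries where CD8 T and NK levels were highest. In the same 2 libraries C1q high cells were above Gzm high cells in orthogonal ACT (534 against 487 CPM) and below them in PD1d/IL-2v ACT (896 against 1473 CPM), so the first rank held in 1 of 2. The exception rests on 1 cell, which held 53 of the 82 C1q high UMIs in orthogonal ACT. In PD1d/IL-2v ACT 1 cell held 318 of 358 C1q high UMIs and 1 cell 327 of 723 Gzm high UMIs. The ranges of neighbours in that order overlapped at each step: NK cells were above CD8 T cells in 4 of 8 libraries and myeloid cells above CD8 T cells in 6 of 7.

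**Figure D1:**
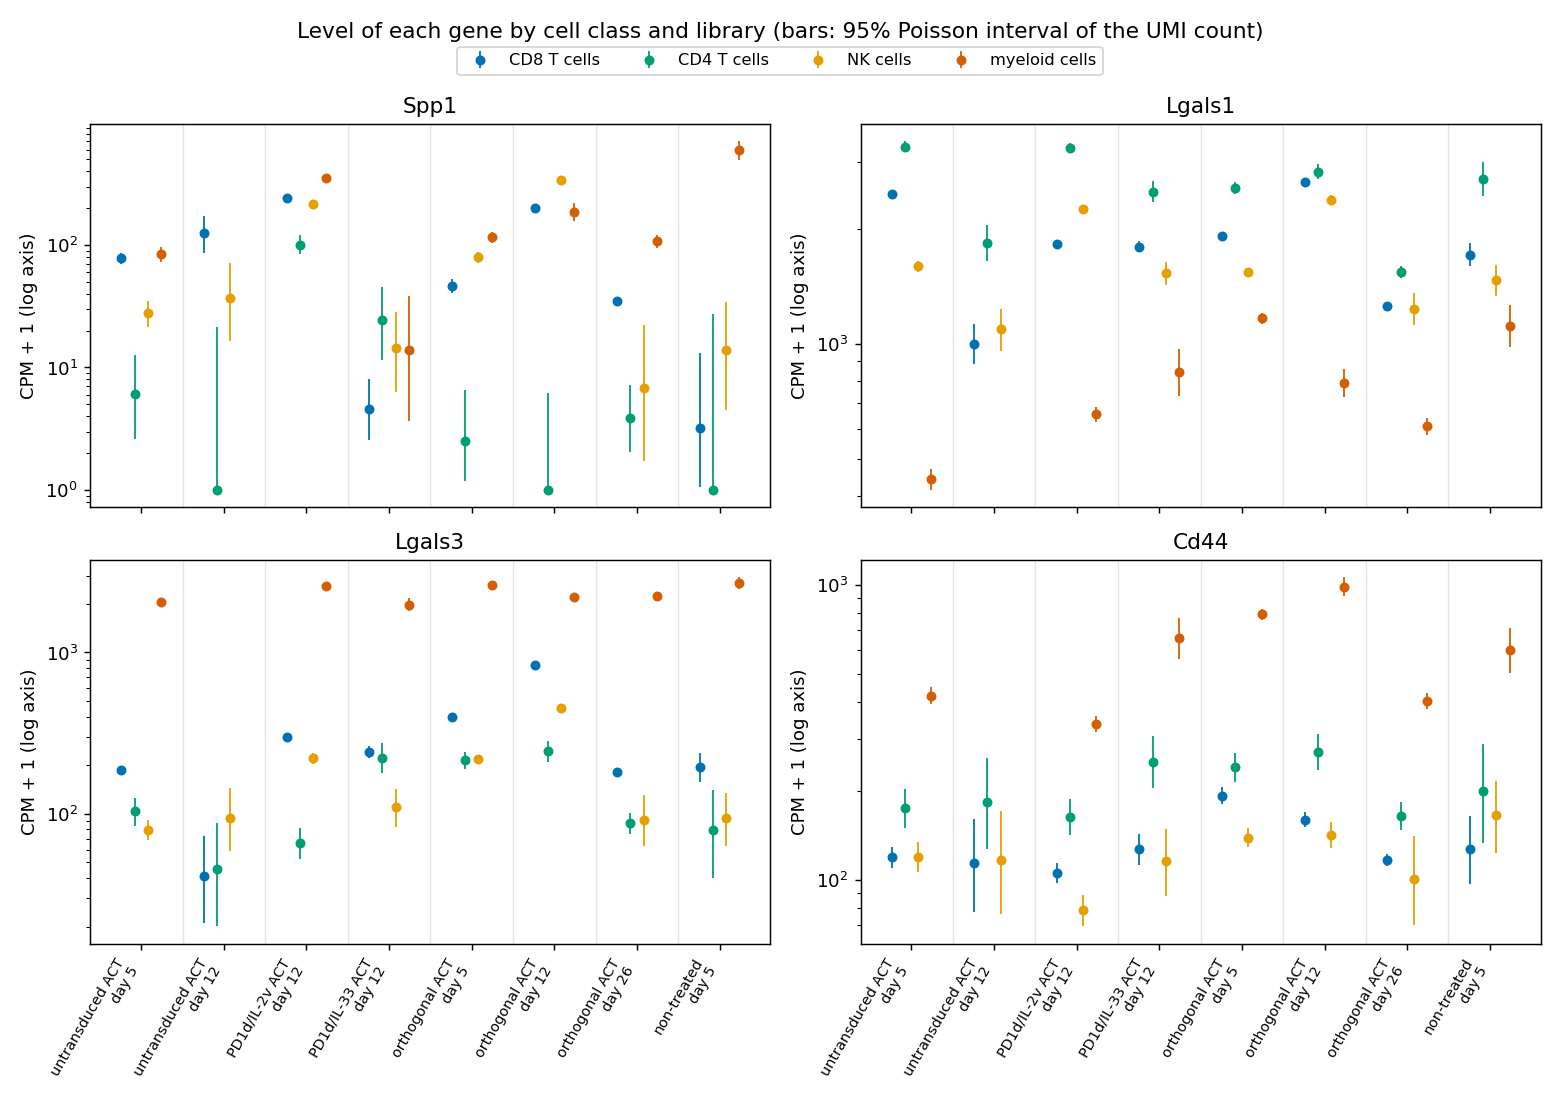
Level of each member (CPM plus 1, log axis) in each cell class, with 1 point per library and exact Poisson 95% bars. Spp1 in CD8 T cells spans 2.18 to 241 CPM over the 8 libraries, while Lgals3 in myeloid cells stays between 1976 and 2701 CPM in the 7 libraries with enough cells.

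Free RNA from lysed macrophages was gauged through C1qa, C1qb, C1qc and Apoe, macrophage genes that other classes were taken to lack. In myeloid cells there were 0.02 to 0.236 Spp1 UMIs per UMI of these 4 genes. The same ratio was 0.2 to 98.9 in CD8 T cells (median 10.6) and 4 to 432.5 in NK cells (median 11.7). The lowest CD8 T value was that of the library with 1 Spp1 UMI. B cells held 162 UMIs of the 4 genes beside 0 of Spp1, and 146 of them lay in the 58 B cells of untransduced ACT on day 5. The 508 CD8 T and 449 NK cells of that library held 34 and 12. The B cell count is therefore not read as a measure of free RNA, and its source was not tested.

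Spp1 was concentrated in few cells. A Spp1 UMI was seen in 961 cells, 7.49% of the 12828, and the 1% of cells with the most Spp1 (128 cells) held 70.3% of its 9688 UMIs. For comparison the top 1% of cells held 10.7% of Lgals1 UMIs, 22.2% of Lgals3 UMIs and 12.3% of Cd44 UMIs. The shares of cells with a UMI of these genes were 87.6%, 46.9% and 54.7%. Day 26 of orthogonal ACT was the most concentrated library for Spp1, with 91.4% of its UMIs in 37 of 3655 cells, and day 12 the least, with 45.9% in 16 of 1643 cells.

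Which class supplied the Spp1 molecules differed between libraries. In orthogonal ACT on day 12, CD8 T cells held 51.6% of Spp1 UMIs (exact binomial interval 49.7 to 53.5%), NK cells 32.3% and myeloid cells 4.89%. Gzm high CD8 T cells alone held 33.6% there while making up 7.06% of the cells. In PD1d/IL-2v ACT the parts were 37.2% in CD8 T, 19.99% in NK and 25.4% in myeloid cells, and 19.6% lay in the Gzm high cells, 1.64% of the cells, with 327 of the 3691 UMIs of that library in 1 of them. Untransduced ACT on day 5 had 51.3% in CD8 T and 24.1% in myeloid cells, and orthogonal ACT on day 5 had 38.1% in NK and 29.5% in myeloid cells. Non-treated tumors had 71.9% in myeloid cells and 0.562% in CD8 T cells. The sort was enriched in CD8+ cells, so the shares of cells, and with them these parts, are partly set by the sort.

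For Lgals3 the myeloid part was 60.8% of UMIs in untransduced ACT on day 5, 54.8% in PD1d/IL-2v ACT, 31.1% in PD1d/IL-33 ACT, 53.2%, 15.0% and 46.9% in orthogonal ACT on days 5, 12 and 26, and 63.1% in non-treated tumors. Day 12 of orthogonal ACT had the smallest myeloid part and the largest CD8 T part, 55.7%, against 9.61 to 36.1% in the other 6 of these libraries. Untransduced ACT on day 12, with 14 myeloid cells, had 79.6% in myeloid and 1.79% in CD8 T cells.

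**Figure D2:**
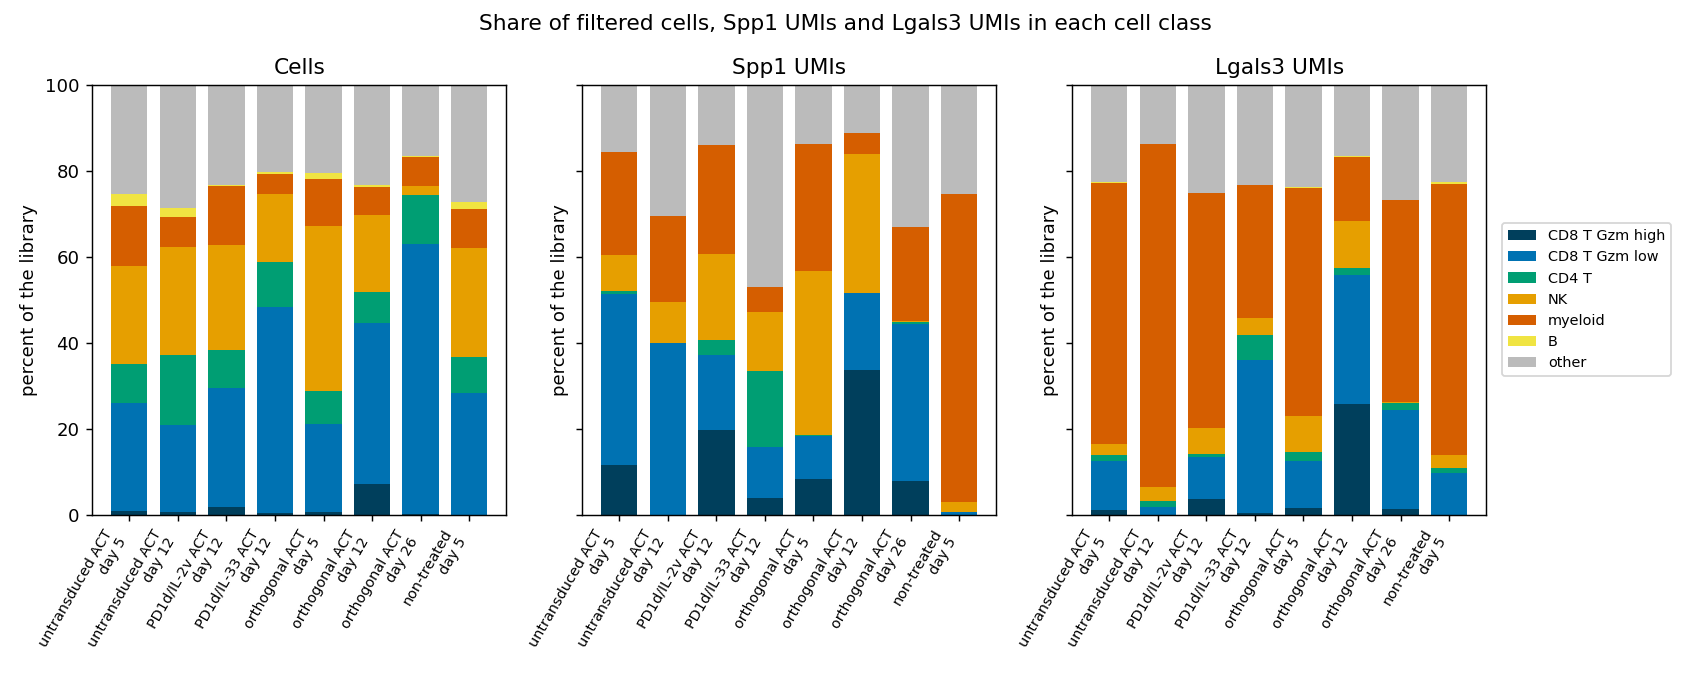
Share of cells, of Spp1 UMIs and of Lgals3 UMIs (percent) held by each class in each of the 8 libraries. In orthogonal ACT on day 12 the Gzm high CD8 T cells are 7.06% of cells and hold 33.6% of Spp1 UMIs, and in non-treated tumors myeloid cells hold 71.9%.

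Within CD8 T cells of orthogonal ACT on day 12, Spp1 and Lgals3 were higher in the Gzm high cells and Cd44 was not. Granzymes C to G are serine proteases of cytotoxic granules. Spp1 was at 487 CPM in 116 Gzm high cells and 95.3 CPM in 615 Gzm low cells, a log2 ratio of 2.24 (2.09 to 2.39). Lgals3 stood at 1447 against 617 CPM (1.22, 1.14 to 1.29), Lgals1 at 3803 against 2245 CPM (0.76, 0.72 to 0.80) and Cd44 at 165 against 156 CPM (0.08, -0.10 to 0.26). A 2-fold higher level in Gzm high cells was seen for 0.676% of the 7698 genes with at least 50 UMIs in both groups together, and 2 of the 4 members were among them. This split was part of how the members were chosen, so nothing is read from that count.

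PD1d/IL-2v ACT was the other library with enough Gzm high cells, 32 against 542 Gzm low cells. Spp1 was at 1473 against 125 CPM there (3.46, 3.31 to 3.60), Lgals3 at 939 against 236 CPM (1.95, 1.80 to 2.10), Lgals1 at 3723 against 1648 CPM (1.17, 1.10 to 1.24) and Cd44 at 108 against 104 CPM (0.05, -0.33 to 0.43). Of 7426 genes, 1.59% were 2-fold higher. Of the members, Spp1, Lgals1 and Lgals3 were among these 118 genes. A single cell held 327 of the 723 Spp1 UMIs of these 32 cells, and without it the level was 841 CPM and the ratio 2.65 (2.48 to 2.83). In orthogonal ACT the top cell held 162 of 901 UMIs, and the ratio was 1.98 without it. In the 3 other libraries with 9 to 16 Gzm high cells, below the minimum, Spp1 was at 314 against 63.2 CPM (untransduced ACT, day 5), 357 against 26.5 CPM (orthogonal ACT, day 5) and 440.0 against 28.1 CPM (orthogonal ACT, day 26). Most of these Gzm high UMIs came from 1 cell per library, with 59 of 87, 60 of 91 and 53 of 89 in the same order. After thinning, 1 of 16, 4 of 16 and 2 of 9 Gzm high cells held a Spp1 UMI. Lgals3 in the same cells was at 314 against 177, 856 against 371 and 657 against 175 CPM. Cd44 went both ways, at 75.8 against 120.5, 204 against 191 and 84.0 against 116 CPM.

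Share of cells, read after each cell was thinned to 2000 UMIs because Gzm high cells were deeper, gave the same order. Spp1 was detected in 26.7% of Gzm high cells (18.9 to 35.7%) and 5.53% of Gzm low cells in orthogonal ACT on day 12, and in 37.5% (21.1 to 56.3%) and 5.17% in PD1d/IL-2v ACT. Lgals3 was detected in 79.3% and 49.8% of these cells in the former library and in 56.3% and 16.6% in the latter. B cells of all libraries together had thinned shares of 0% for Spp1 and 6.87% for Lgals3, at a median of 3188 UMIs. They were taken to lack these 2 genes. Only 9 and 4 of the 131 B cells came from orthogonal ACT on day 12 and PD1d/IL-2v ACT, so their shares give no background for these libraries. The B cell shares of 16.8% for Lgals1 and 10.7% for Cd44 are not a background either, because B cells were not taken to lack those genes.

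Markers of other cells were summed in the Gzm high cells. All 5 melanoma markers were at 0 UMIs in both libraries, and the C1q macrophage list summed to 2.70 CPM in orthogonal ACT on day 12 (3 of 5 genes at 0) and to 2.04 CPM in PD1d/IL-2v ACT (4 of 5 at 0). The neutrophil list (S100a8, S100a9, Csf3r, Retnlg) summed to 2.70 CPM in the former library and to 2229 CPM in the latter, where 1086 of 1094 UMIs lay in 1 cell. Without that cell the Gzm high level in PD1d/IL-2v ACT was 1487 CPM for Spp1 and 924 CPM for Lgals3. NK markers summed to 533 CPM in Gzm high and 403 CPM in Gzm low cells of orthogonal ACT on day 12, and to 969.9 and 706 CPM in PD1d/IL-2v ACT, and their part in the result was not tested.

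A finer scale of granzyme UMIs was laid over the 731 CD8 T cells of orthogonal ACT on day 12, with bins chosen after values were seen. Spp1 stood at 90.4 CPM in 518 cells with no Gzmc to Gzmg UMI, 116 CPM with 1 to 2 UMIs, 172 with 3 to 9, 454 with 10 to 29 and 575 with 30 or more (67 cells). Lgals3 stood at 610, 651, 937, 1365 and 1600 CPM over the same bins. Both were higher in each next bin, although the intervals of the lowest neighbours met, up to the bin of 3 to 9 UMIs for Spp1 and up to that of 1 to 2 UMIs for Lgals3. Lgals1 stood at 2155, 2637, 3716, 3405 and 3961 CPM, and Cd44 at 154, 166, 211, 183 and 148 CPM with no such order. Cells with more granzyme UMIs were also deeper, from a median of 7111.5 UMIs in the lowest bin to 17613 in the highest. The bins with 3 to 29 UMIs held 21 and 28 cells.

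**Figure D3:**
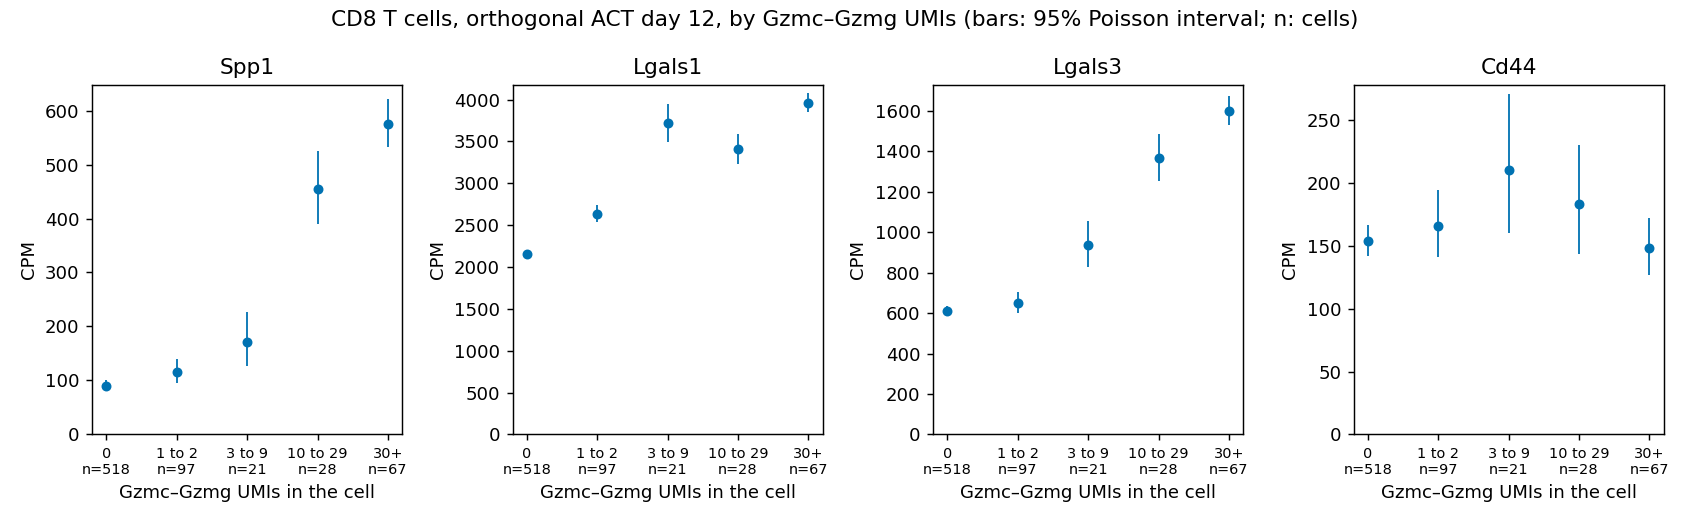
Level (CPM) of the 4 members in CD8 T cells of orthogonal ACT on day 12, binned by the summed UMIs of Gzmc to Gzmg, with exact Poisson 95% bars. Spp1 goes from 90.4 to 575 CPM and Lgals3 from 610 to 1600 CPM between the lowest and highest bins, while Cd44 stays between 148 and 211 CPM.

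On day 12 the Spp1 level differed by condition in CD8 T, NK and myeloid cells. All comparisons that follow share libraries, and the ratios are set side by side without a test between them. Orthogonal ACT against PD1d/IL-33 ACT gave a Spp1 log2 ratio of 3.95 (3.66 to 4.24) in CD8 T cells, where 1.2% of 8412 genes were 2-fold higher. Gzm high cells were 116 of 731 CD8 T cells in orthogonal and 2 of 370 in PD1d/IL-33 ACT. The Gzm low CD8 T cells alone gave 3.05 (2.76 to 3.34), beside 0.919% of genes. In NK cells the ratio was 3.90 (3.24 to 4.56) beside 1.45% of genes, and in myeloid cells 3.10 (2.01 to 4.18) beside 4.43%, from 3 UMIs in PD1d/IL-33 ACT. PD1d/IL-33 against PD1d/IL-2v ACT gave -4.21 (-4.50 to -3.92) in CD8 T cells, with 1.46% of genes 2-fold lower, -3.27 in NK cells (2.58% of genes) and -3.98 (-5.05 to -2.92) in myeloid cells (6.65%). Gzm low CD8 T cells alone gave -3.41 (-3.70 to -3.12) for that pair. In CD8 T, NK and myeloid cells PD1d/IL-33 ACT had the lowest Spp1 level of the day 12 libraries with a value. Myeloid cells were also the smallest share of cells in that library, 37 of 766 against 14 of 202 in untransduced, 106 of 1643 in orthogonal and 266 of 1946 in PD1d/IL-2v ACT on day 12, and their part was not tested.

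Between orthogonal and PD1d/IL-2v ACT on day 12, the Spp1 difference over all CD8 T cells rested on 1 Gzm high cell. The log2 ratio was -0.26 (-0.36 to -0.16) over all CD8 T cells, -1.58 (-1.72 to -1.44) in Gzm high cells, beside 3.72% of genes 2-fold lower, and -0.36 (-0.52 to -0.21) in Gzm low cells. Without the PD1d/IL-2v cell with 327 UMIs it was 0.11 over all CD8 T cells, with an interval that included 0. In Gzm high cells it was then -0.78 (-0.94 to -0.61), still lower but no longer 2-fold. The Gzm low ratio did not contain that cell, and another cell held 105 of the 651 Gzm low UMIs in PD1d/IL-2v ACT. In NK cells the log2 ratio was 0.63 (0.49 to 0.77). In myeloid cells it was -0.89 (-1.14 to -0.63), and -0.32 without the top PD1d/IL-2v cell or -1.55 without the top cell of orthogonal ACT. Gzm high cells were 116 of the 731 CD8 T cells in orthogonal and 32 of the 574 in PD1d/IL-2v ACT. Against untransduced ACT on day 12, with its 42 CD8 T cells, the ratio was 0.65 (0.19 to 1.12) in CD8 T cells, or 2.26 without 1 untransduced cell, and 2.93 (2.10 to 3.77) in NK cells, the latter beside 3.58% of genes 2-fold higher. In Gzm low CD8 T cells the ratio was -0.36 (-0.83 to 0.11), with that untransduced cell among them, and 1 of the 42 cells was Gzm high.

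Over time in orthogonal ACT, Spp1 was highest on day 12 in CD8 T and NK cells. In myeloid cells the lead of day 12 over day 5 depended on which cells were counted. Day 12 against day 5 gave log2 ratios of 1.92 (1.74 to 2.10) in CD8 T cells, where 0.405% of genes were 2-fold higher, 1.98 (1.83 to 2.14) in NK cells, where 0.294% were, and 0.65 (0.38 to 0.93) in myeloid cells. Gzm low CD8 T cells alone gave 1.53 (1.30 to 1.75). A single myeloid cell held 53 of the 131 UMIs of day 12, and without it the day 12 level was 114 CPM, as on day 5, while without the top day 5 cell (188 of 326 UMIs) the ratio was 1.74. Cells with 3 or more neutrophil UMIs were 108 of 258 myeloid cells on day 5 and 10 of 106 on day 12. Without them the myeloid Spp1 levels were 194 CPM on day 5 and 207 CPM on day 12. Day 26 against day 12 gave -2.27 (-2.39 to -2.15) in CD8 T cells beside 1.62% of genes 2-fold lower, and -1.47 (-1.62 to -1.31) in Gzm low CD8 T cells alone. In NK cells the ratio was -4.46 (-5.37 to -3.55) from 2 UMIs on day 26, beside 3.41%, and in myeloid cells -0.75 (-1.03 to -0.46), or -1.61 without the top cell of day 26 and -0.09 without that of day 12. The day 12 and day 26 libraries carry different run identifiers, and run and day cannot be told apart.

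On day 5, Spp1 in CD8 T cells was lower in orthogonal than in untransduced ACT, with a log2 ratio of -0.65 (-0.85 to -0.44), or -1.05 without the top orthogonal cell, and higher in NK cells, with 1.26 (0.98 to 1.55) beside 1.94% of genes 2-fold higher. Both CD8 T values leaned on single cells, with 60 of 202 UMIs in 1 orthogonal cell and 59 of 388 in 1 untransduced cell. Untransduced ACT against non-treated tumors gave 2.84 (2.11 to 3.56) in CD8 T cells beside 1.46% of genes, from 1 UMI in non-treated tumors. The myeloid ratio was -2.70 (-3.01 to -2.39) beside 2.15% of genes 2-fold lower, and without the non-treated cell that held 103 of 128 UMIs it was -0.48 (-1.05 to 0.08). The day 5 libraries each carry their own run identifier. For every member, run and condition cannot be told apart in comparisons within day 5.

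Lgals3 was highest in myeloid cells in 7 of 7 libraries. Its level in myeloid cells was 2053 CPM in untransduced ACT on day 5, 2574 in PD1d/IL-2v ACT, 1976 in PD1d/IL-33 ACT, 2633, 2209.9 and 2233 in orthogonal ACT on days 5, 12 and 26, and 2701 in non-treated tumors. In CD8 T cells it was 185 and 39.9 CPM in untransduced ACT on days 5 and 12, 296 in PD1d/IL-2v ACT, 241 in PD1d/IL-33 ACT, 398, 839 and 182 in orthogonal ACT on days 5, 12 and 26, and 194 in non-treated tumors. The myeloid levels lay within a narrow range and did not overlap those of CD8 T cells, a separation seen in the same direction for 12% of 11444 genes. Orthogonal ACT on day 12 was the highest library for CD8 T cells.

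In NK cells the Lgals3 level was 78.4 and 93.5 CPM in untransduced ACT on days 5 and 12, 219 in PD1d/IL-2v ACT, 108 in PD1d/IL-33 ACT, 218, 450.1 and 90.8 in orthogonal ACT on days 5, 12 and 26, and 93.3 in non-treated tumors. In CD4 T cells it was 102, 44.3, 64.4, 222, 214, 242, 86.5 and 77.9 CPM in the same order of libraries. Orthogonal ACT on day 12 was highest in both classes, but in CD4 T cells its interval (208 to 281) overlapped those of PD1d/IL-33 ACT (177 to 274) and of its own day 5 (190 to 240). CD8 T cells were above NK cells in 7 of 8 libraries and above CD4 T cells in 7 of 8, the exception in each case being untransduced ACT on day 12, where CD8 T cells held 11 UMIs.

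Between conditions, Lgals3 often differed by more in T and NK cells than in myeloid cells. Of the 7 comparisons with a myeloid value, the ratio was wider than the myeloid one in 6 for NK, in 5 for CD8 T and in 4 for CD4 T cells. Among the exceptions, PD1d/IL-33 against PD1d/IL-2v ACT gave -0.29 in CD8 T and -0.38 in myeloid cells, and untransduced ACT on day 5 against non-treated tumors gave -0.07 in CD8 T, -0.23 in NK, 0.36 in CD4 T and -0.39 in myeloid cells. In CD8 T cells, orthogonal ACT on day 12 against PD1d/IL-2v ACT gave a log2 ratio of 1.47 (1.39 to 1.55) beside 1.08% of genes 2-fold higher, against PD1d/IL-33 ACT 1.76 (1.64 to 1.88), and against untransduced ACT 4.09 (3.37 to 4.80) beside 5.29%. In NK cells the first 2 of these ratios were 1.01 (0.88 to 1.13), beside 1.46%, or 0.91 without the top orthogonal cell, and 1.96 (1.60 to 2.31). In CD4 T cells they were 1.76 (1.42 to 2.11) and 0.12 (-0.24 to 0.48). In myeloid cells they were -0.22 (-0.30 to -0.14) and 0.16 (0.01 to 0.31). The Gzm low CD8 T cells alone gave 1.35 and 1.33, beside 1.15% and 0.919% of genes, so both ratios were past 2-fold without the Gzm high cells. CD4 T cells differed between the single-product libraries, with more Lgals3 in PD1d/IL-33 than in PD1d/IL-2v ACT (1.64, 1.24 to 2.04, beside 4.87% of genes). Their makeup differed too: cells with a Foxp3 UMI, which held less Lgals3, were 15 of 80 CD4 T cells in PD1d/IL-33, 123 of 171 in PD1d/IL-2v and 26 of 122 in orthogonal ACT on day 12. Within cells without a Foxp3 UMI the PD1d/IL-33 against PD1d/IL-2v ratio was 0.89 (0.36 to 1.42) and within those with one 0.75 (-0.33 to 1.83), neither past 2-fold. Orthogonal against PD1d/IL-2v ACT gave 1.16 (0.68 to 1.64) without and -0.08 with a Foxp3 UMI, the latter from 8 and 41 UMIs.

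Lgals3 was 2-fold higher in orthogonal than in untransduced ACT already on day 5, with log2 ratios of 1.07 (0.96 to 1.18) in CD8 T cells beside 1.7% of genes and 1.37 (1.17 to 1.57) in NK cells. From day 5 to day 12 of orthogonal ACT the ratio was 1.06 (0.98 to 1.13) in CD8 T cells and 1.01 (0.90 to 1.12) in NK cells. The NK ratio was 0.91 without the top day 12 cell. In Gzm low CD8 T cells alone the ratio was 0.72 (0.64 to 0.81), not 2-fold. Gzm high cells were 16 of 502 CD8 T cells on day 5 and 116 of 731 on day 12, and their part was not tested. From day 12 to day 26 the ratios were -2.15 (-2.21 to -2.08) in CD8 T cells and -2.19 (-2.66 to -1.72) in NK cells. CD4 T cells gave -1.39 (-1.67 to -1.11), beside 2.3% of genes 2-fold lower. Myeloid cells gave 0.01 (-0.07 to 0.10) over the same days.

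Lgals1 was higher in T and NK cells than in myeloid cells, lower in B cells, and highest in CD4 T cells among the main classes. CD4 T cells had 3286 and 1838 CPM in untransduced ACT on days 5 and 12, 3256 in PD1d/IL-2v ACT, 2503 in PD1d/IL-33 ACT, 2561, 2827 and 1542 in orthogonal ACT on days 5, 12 and 26, and 2704 in non-treated tumors. CD8 T cells had 2473, 998, 1827, 1798, 1913, 2662, 1256 and 1714 CPM in the same order. CD4 T cells were above CD8 T cells and above NK cells in 8 of 8 libraries, a direction held in every library by 9.09% of 10973 and 10.8% of 10201 genes. NK cells had 1597, 1091, 2262, 1529, 1544, 2388, 1234 and 1467 CPM. Myeloid cells, at 440 to 1165 CPM, lay below CD8 T, CD4 T and NK cells with no overlap over the 7 libraries with a myeloid value, as 18.2% of genes did against CD8 T, 14.4% against CD4 T and 15% against NK cells. The CD8 T and NK levels of untransduced ACT on day 12, which has no myeloid value, lay below the highest myeloid level. B cells had 79.9 CPM in untransduced and 190.3 CPM in orthogonal ACT on day 5.

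CD4 T cells were split by the regulatory T cell factor Foxp3 after levels had been seen, with a minimum of 10 cells in place of 20, and the 2 galectins went opposite ways. Lgals1 with a Foxp3 UMI was at 4106 and 2370 CPM in untransduced ACT on days 5 and 12, 3530 in PD1d/IL-2v ACT, 3407 in PD1d/IL-33 ACT, 3182, 4022 and 2417 in orthogonal ACT on days 5, 12 and 26, and 3397 in non-treated tumors. Without a Foxp3 UMI it was at 2288, 999, 2328, 2235, 2364, 2360.3, 1008 and 1856 CPM. Cells with Foxp3 were higher in 8 of 8 libraries, by 1.35 to 2.40 times, and the ranges did not overlap. The gap between the ranges was within counting error. The lowest level with Foxp3 was 2370 CPM (2092 to 2675, 16 cells) and the highest without was 2364 CPM. In the 5 libraries with 20 cells on both sides Lgals1 was higher in 5 of 5, at 2417 to 4106 against 1008 to 2364 CPM, and Lgals3 lower in 5 of 5. Of 8298 genes, 4.22% were higher in every library and 0.639% without overlap. Lgals3 was at 25.7 to 78.7 CPM (median 36.8) in cells with a Foxp3 UMI and at 71.3 to 321 CPM (median 167) in those without, and lower in 8 of 8 libraries, as 3.71% of genes were. Its ratios were 0.124 to 0.380, and 2 libraries rest on few counts, with 3 against 5 UMIs in untransduced ACT on day 12 and 2 against 9 in non-treated tumors. Orthogonal ACT on day 12 gave 39.9 against 321 CPM and PD1d/IL-33 ACT 78.7 against 264 CPM. Cd44 was higher with Foxp3 in 3 of 8 libraries and Spp1 in 3 of 8. Cells with a Foxp3 UMI were deeper, with medians of 5087 to 8101 UMIs against 3648 to 5855.

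**Figure D4:**
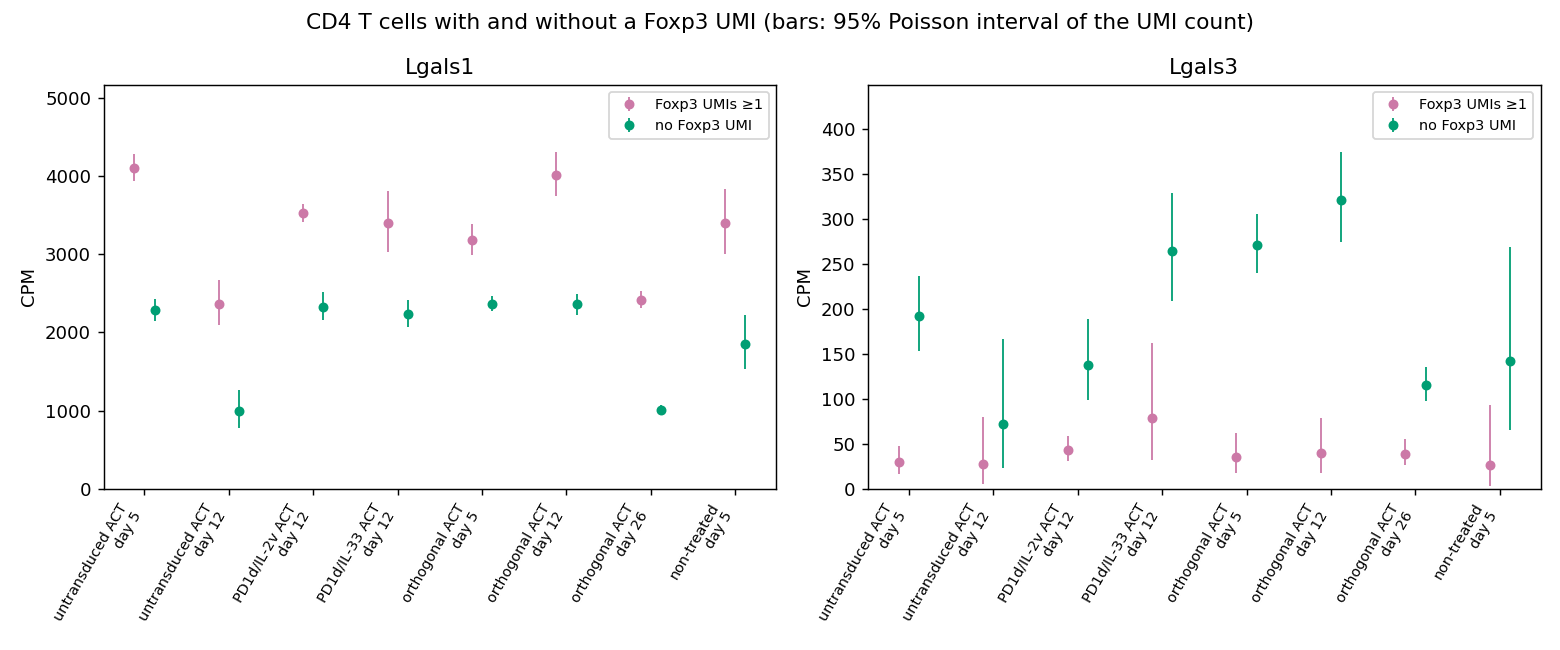
Levels (CPM) of Lgals1 and Lgals3 in CD4 T cells with and without a Foxp3 UMI in each of the 8 libraries, with exact Poisson 95% bars. Lgals1 is higher with Foxp3 in 8 of 8 libraries (2370 to 4106 CPM) and Lgals3 is lower in 8 of 8 (25.7 to 78.7 CPM).

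In CD8 T cells Lgals1 was also higher in cycling cells, those with 2 or more UMIs summed over Mki67, Top2a, Birc5 and Ccna2. It was higher in 6 of 6 libraries, by 1.30 to 2.42 times, a direction held by 17.8% of 10651 genes. Cycling cells were also deeper, with medians of 8792 to 17705.5 UMIs against 5085 to 7856.

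Between conditions Lgals1 differed by less than Lgals3 in CD8 T cells in 7 of 8 comparisons, the exception being untransduced ACT on day 5 against non-treated tumors, with 0.53 (0.42 to 0.63) for Lgals1 and -0.07 (-0.37 to 0.23) for Lgals3. Orthogonal ACT on day 12 gave CD8 T ratios of 0.54 (0.51 to 0.58) against PD1d/IL-2v ACT, 0.56 (0.51 to 0.61) against PD1d/IL-33 ACT and 1.41 (1.24 to 1.58) against untransduced ACT. Day 26 against day 12 gave -1.08 (-1.11 to -1.05) in CD8 T cells and -0.87 (-0.91 to -0.84) in Gzm low CD8 T cells alone. The widest value over all myeloid cells was on day 5, with 1.38 (1.28 to 1.48) in orthogonal against untransduced ACT beside 4.33% of genes 2-fold higher. It was 0.12 (-0.06 to 0.30) in C1q high and 1.56 (1.43 to 1.69) in C1q low cells. C1q high cells were 104 of 258 myeloid cells in orthogonal and 21 of 269 in untransduced ACT, and the part of this makeup was not tested. In that orthogonal day 5 library 108 of the 258 myeloid cells held 3 or more neutrophil UMIs, and without such cells the Lgals1 level there was 1200.5 CPM instead of 1165. Non-treated tumors, with 25 myeloid cells, stood at 1115 CPM, near orthogonal ACT on day 5, and untransduced ACT at 440 CPM. Untransduced ACT on day 5 against non-treated tumors gave -1.32 (-1.52 to -1.12), beside 2.15% of genes 2-fold lower.

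Cd44, the receptor, was highest in myeloid cells. Myeloid cells had 419.8 CPM in untransduced ACT on day 5, 336 in PD1d/IL-2v ACT, 660.1 in PD1d/IL-33 ACT, 794, 985 and 402 in orthogonal ACT on days 5, 12 and 26, and 601 in non-treated tumors. CD4 T cells had 162 to 270.3 CPM (median 190.4), CD8 T cells 104 to 191 CPM (median 122) and NK cells 77.5 to 164 CPM (median 117). Myeloid cells did not overlap any of these, a separation seen for 12% of genes against CD8 T cells, 10.4% against CD4 T cells and 11.2% against NK cells. CD4 T cells were above CD8 T cells and NK cells in 8 of 8 libraries, as were 9.09% of 10973 genes against CD8 T and 10.8% of 10201 against NK cells.

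In CD8 T cells the Cd44 level was 118 and 112.5 CPM in untransduced ACT on days 5 and 12, 104 in PD1d/IL-2v ACT, 126 in PD1d/IL-33 ACT, 191, 159 and 115 in orthogonal ACT on days 5, 12 and 26, and 126 in non-treated tumors. Orthogonal ACT on days 5 and 12 was highest. Against PD1d/IL-2v ACT, Cd44 was higher in orthogonal ACT on day 12 in 8 of 8 classes and past 2-fold in 3, all myeloid, with 1.52 (1.38 to 1.66) over all myeloid cells, 1.62 (1.19 to 2.04) in C1q high and 1.56 (1.41 to 1.71) in C1q low cells, beside 3.29%, 5.29% and 3.8% of genes. PD1d/IL-33 against PD1d/IL-2v ACT was higher in 6 of 6 classes by log2 ratios of 0.23 to 0.95. Day 26 against day 12 of orthogonal ACT was lower in 7 of 7 classes, by -1.27 (-1.41 to -1.13) in myeloid cells beside 2.54% of genes. Several of these classes share cells, so the counts are not of independent values.

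Within myeloid cells, Spp1 and Cd44 went opposite ways with C1q, although for Spp1 the direction in 2 of 5 libraries turned on single cells. C1q, made by tissue macrophages, is the starting protein of the classical complement pathway. Spp1 was higher in C1q high than in C1q low cells in 5 of 5 libraries, as 8.33% of 8352 genes were, at 519 against 30.6 CPM in untransduced ACT on day 5, 896 against 256 CPM in PD1d/IL-2v ACT and 221 against 29.6, 534 against 88.7 and 208 against 87.0 CPM in orthogonal ACT on days 5, 12 and 26. The ratios were past 2-fold in each, from 1.17 (0.81 to 1.53) on day 26 to 3.71 (3.33 to 4.08) in untransduced ACT, where 1.8% and 3.74% of genes were 2-fold higher. PD1d/IL-2v ACT and days 5 and 12 of orthogonal ACT gave 1.77, 2.54 and 2.46 beside 2.29%, 0.689% and 3.46% of genes. A single cell held 318 of the 358 UMIs in C1q high cells of PD1d/IL-2v ACT, 188 of 279 in orthogonal ACT on day 5 and 53 of 82 on day 12. Without the top C1q high cell the ratio was -1.21 in PD1d/IL-2v ACT and -0.66 on day 26, so Spp1 was higher in 3 of 5 libraries, at 2.66 in untransduced ACT and 1.06 and 1.21 on days 5 and 12. That removal cut the C1q high side only, while on day 26 the top C1q low cell held 125 of 172 UMIs. Without the 3 cells with the most UMIs on each side, the sign changed in PD1d/IL-2v ACT and not on day 26. In orthogonal ACT on day 5, leaving out cells with 3 or more neutrophil UMIs moved the C1q high level from 221 to 348 CPM.

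Cd44 went the other way. C1q high against C1q low cells had 332 against 430.3 CPM in untransduced ACT on day 5, 193 against 362 CPM in PD1d/IL-2v ACT and 727 against 847, 612 against 1088 and 205 against 439.5 CPM in orthogonal ACT on days 5, 12 and 26. It was lower in 5 of 5 libraries, as 13.2% of genes were, and past 2-fold in 1, at -1.06 (-1.38 to -0.74) on day 26 beside 4.52% of genes 2-fold lower. In orthogonal ACT on day 5, without cells with 3 or more neutrophil UMIs, Cd44 was nearly level, at 726 against 747 CPM. Lgals1 was higher in C1q high cells in 5 of 5 libraries, at 963 to 1312 against 349 to 1048 CPM, as 8.33% of genes were, and in 4 of 5 without the top C1q high cell. Lgals3 was higher in 4 of 5, at 2036 to 3585 against 1869 to 2487 CPM, and in orthogonal ACT on day 12 a single cell held 279 of 472 UMIs. Without that cell the Lgals3 ratio moved from 0.64 to -0.44, and Lgals3 was higher in 3 of 5.

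**Figure D5:**
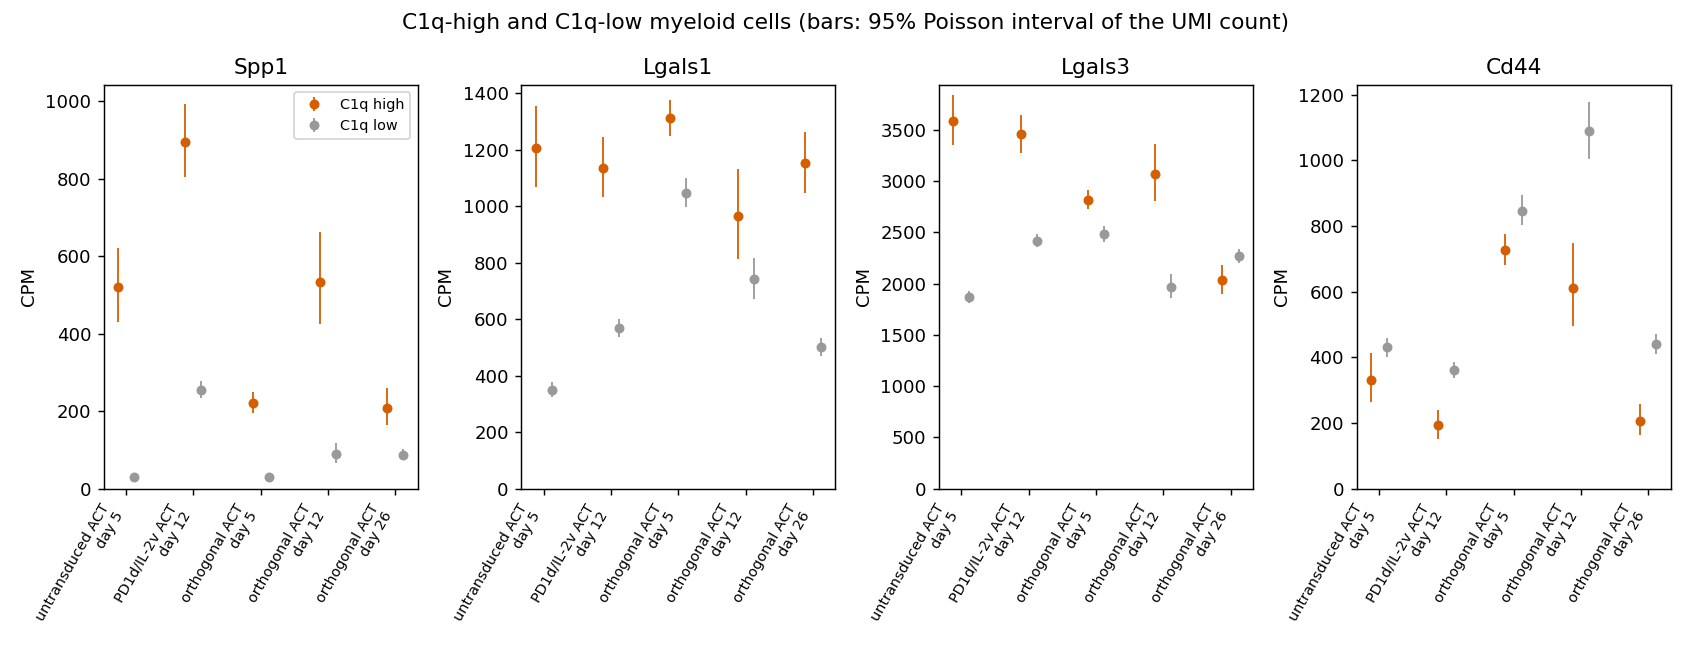
Levels (CPM) of the 4 members in C1q high and C1q low myeloid cells of the 5 libraries with at least 20 cells of each, with exact Poisson 95% bars. Spp1 is higher in C1q high cells in 5 of 5 libraries, or 3 of 5 without the top C1q high cell, and Cd44 is lower in 5 of 5 (for example 612 against 1088 CPM in orthogonal ACT on day 12).

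Partner genes were followed as lists, described by counts and medians. Of 10 osteopontin receptor genes, 4 had enough UMIs in the Gzm high against low comparison of orthogonal ACT on day 12, 0 were 2-fold higher and 1 was 2-fold lower, Itga4 at -1.98, an integrin subunit of homing receptors. Their median log2 ratio was -0.16 against -0.11 over all genes. Of 8 genes for galectin binding partners, the immune checkpoint receptor Havcr2 (TIM-3) was 2-fold higher, at 89.2 against 39.4 CPM, and Cd7 lower at -1.96, with a median of -0.14. None of the 6 measured CD44 ligands and partners and none of the 3 other galectins passed 2-fold, nor did any of 6 cycling genes, and 0 of 7 osteopontin processing genes had enough UMIs. Among genes of naive and memory T cells, Ccr7, a homing receptor for lymph nodes, was at -2.51, Tcf7, a factor of memory T cells, at -1.94 and S1pr1, a receptor for exit from tissue, at -1.70, while Il7r, the interleukin-7 receptor gene, was at -0.54 and Lef1 at -0.09. Of all genes, 1.64% were 2-fold lower. PD1d/IL-2v ACT had Itgb3, the integrin β3 subunit of an osteopontin receptor, at 1.73 and Havcr2 at 1.58, and Tcf7 at -2.01 and S1pr1 at -1.74, beside 2.02% of all genes 2-fold lower. There Lef1 was at -0.95, Il7r at -0.29 and Ccr7 at -0.23, so Ccr7 was 2-fold lower in 1 of these samples and not in the other.

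The same lists in CD8 T cells of orthogonal ACT from day 12 to day 26 had Itgb1 at 1.19 and Itga4 at 1.27, both integrin subunits, Itgb3 at -1.20, Cd7 at 1.36 and Cd74, a chaperone that pairs with CD44, at 1.67. Tcf7 was at 1.14, S1pr1 at 1.34 and Il7r at 1.54, where 1.51% of all genes were 2-fold higher, while Lef1 was at 0.38 and Ccr7 at -0.66. Among the receptors, Itgb1 had median levels of 316 CPM in CD8 T and 674 CPM in NK cells, Itga4 157 CPM in CD8 T cells and Itgav 222 CPM in CD4 T and 89.0 CPM in CD8 T cells. Itgb6 was at 0 in all classes. In C1q high against C1q low cells of orthogonal ACT on day 12, Mmp12, a macrophage elastase, was at 2.58 and the proteoglycan Vcan at -2.66.

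Spp1-positive CD8 T cells were compared with Spp1-negative ones after thinning to 2000 UMIs, in the 4 libraries with at least 20 positive cells. There were 20 such cells in untransduced ACT on day 5, 40 in PD1d/IL-2v ACT and 65 and 20 in orthogonal ACT on days 12 and 26. Ranked by the median log2 ratio over the 4 libraries among 2471 genes, the chemokine Ccl1 came highest at 2.15, followed by Nrgn (2.08), the chemokine Ccl3 (1.94), the transcription factor Irf8 (1.66) and the inhibitory receptor Lag3 (1.62). Lgals3 was the sixth at 1.55 (0.60 to 3.10 over libraries). Lgals3 was detected in 30, 52.5, 70.8 and 40% of positive against 18.9, 16.3, 52.9 and 19.7% of negative cells. Lgals1 ratios were 1.16, 1.33, 0.48 and 1.24, and Cd44 ratios -0.16, 0.36, 0.34 and -0.54, with no single direction. Positive cells were deeper before thinning, with medians of 11887 to 12537.5 UMIs against 5235 to 8118 UMIs. Gzm high cells were 1 of 20, 12 of 40, 31 of 65 and 2 of 20 positive cells in the same order of libraries. Among all CD8 T cells they were 16 of 508, 32 of 574, 116 of 731 and 9 of 2303, and their part was not tested.

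Likeness of pattern was measured by Pearson's r over 39 points, each a class in a library, among 8510 genes. The points share libraries and depths, and r is a description. Spp1 was most like Upp1 (0.67), Cox7a2 (0.67), Tmem256 (0.66), Sdf2l1 (0.66) and Nek6 (0.66), and Lgals3 reached 0.61 with it. Lgals1 was most like Ndufa13 (0.88), S100a13 (0.87), S100a10 (0.85), Acot7 (0.84) and Myl6 (0.83). Lgals3 was most like Cd93 (0.92), Upp1 (0.91), Lilrb4a (0.91), Eif4ebp1 (0.90) and Ifitm3 (0.90), and Cd44 most like Shfm1 (0.92), Picalm (0.89), Rab1a (0.88), Pvr (0.88) and Slc39a1 (0.87). Over the same points r was 0.73 between Lgals3 and Cd44 and -0.08 between Lgals1 and Lgals3. Over the 8 libraries in CD8 T cells alone r was 0.81 between Lgals1 and Lgals3 and 0.13 between Spp1 and Lgals3.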

How the data were processed

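CD45+ tumor leukocytes of 8 conditions were sequenced as 1 single-cell library each (5′ chemistry). The authors made the deposited matrix of UMI counts per gene and cell with Cell Ranger 2.2.0, bcl2fastq and GRCm38, per the submitters' processing notes. The matrix holds whole, unnormalized counts, and each library was read from the suffix of its barcodes, with 0 columns of values left unmapped. Each library's number of barcodes was a multiple of 100, and the study's methods name Cell Ranger count with default settings in a later version. Which version made the matrix cannot be told from these sources.

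From these counts, cells were kept at 500 to 6000 genes, 2000 to 40000 UMIs, 5 to 60% ribosomal and under 10% mitochondrial UMIs. Lymphoid gates allowed at most 2 UMIs of Lyz2, Csf1r and Adgre1 together and myeloid cells needed 5 or more. CD8 T cells had a Cd3 and a Cd8 UMI and no Cd4, CD4 T cells the reverse, and NK cells an Ncr1 or Klrb1c UMI with no Cd3 or Cd8b1. UMIs were summed per library and class and divided by the class total (CPM). With 1 library per group no test was possible, and log2 ratios carry counting intervals (delta method), levels exact Poisson and shares exact Clopper-Pearson intervals at 95%. Genes entered a background share with 50 UMIs over both groups and were called at 2-fold. Scrublet marked 35 of 12828 cells (0.273%) and was not relied on, so doublets were not removed.

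The members and gene lists were chosen with earlier results of these data known. Named genes are the members, genes of the fixed lists past 2-fold, the 5 genes most like each member, and the 5 highest genes of Spp1-positive CD8 T cells. Itgb1, Itga4, Itgav and Itgb6 levels, Lgals3 as the sixth gene, the Foxp3, cycling and granzyme subgroups, and the alternatives that leave out the top cell, the top 3 cells or cells with 3 or more neutrophil UMIs were chosen after values were seen. Other alternatives were another cell filter, no filter, other limits on myeloid UMIs, a pseudocount of 1 CPM, TMM factors, a mean over cells, other thresholds and no thinning. Results that need some further genes are not reported here. Scripts were tested on simulated data. Python 3.11.15, numpy 2.4.6, scipy 1.17.1, pandas 2.3.3, scanpy 1.11.5, R 4.3.3 and edgeR 4.0.16 (TMM factors only) were used.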

Additional observations from a re-analysis of the deposited data

Results flagged for a closer look

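Orthogonal against untransduced ACT went opposite ways on days 5 and 12 in 4 values, with counting intervals on both sides that excluded 0. The Spp1 log2 ratio in CD8 T cells was -0.65 on day 5 and 0.65 on day 12. For Lgals1 it was -0.37 and 1.41 in all CD8 T cells, -0.39 and 1.17 in Gzm low CD8 T cells, and -0.36 and 0.62 in CD4 T cells. The difference between days was not tested, with 1 library per condition and day. The untransduced day 12 library held 42 CD8 T and 33 CD4 T cells, and 25 of its 34 Spp1 UMIs in CD8 T cells came from 1 cell, without which the day 12 ratio was 2.26. The day 12 pair shares a run identifier and the day 5 libraries each have their own. Run therefore cannot be told apart from day, nor from condition within day 5.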

How the results depend on the processing

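No paired analysis was possible because each group was 1 library. Of 161 values of the main comparisons under the alternatives, 123 stayed within the counting interval of the reported value, 38 moved outside it and 0 changed sign among those called 2-fold. Of 2451 other member values, 1938 stayed, 506 moved and 7 called values changed sign.

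In Gzm high against low cells of orthogonal ACT on day 12, Spp1 (2.24) was 2.96 under the study's later cell filter, 2.06 without the 3 top cells, 1.98 and 2.41 without the top Gzm high or low cell, and 1.89 with 1 granzyme UMI as threshold. Lgals1 (0.76) was 0.87 under the later filter, 0.88 with TMM factors, 0.92 as a mean over cells, and 0.66 and 0.71 with granzyme thresholds of 1 and 10. Lgals3 (1.22) was 1.33 with TMM and 0.94 with threshold 1, and Cd44 (0.08) was 0.45 under the later filter. For C1q high against low cells of that library, Spp1 (2.46) was 1.81 as a mean over cells, 1.85 without the 3 top cells and 1.21 and 3.07 without the top C1q high or low cell, Lgals1 (0.37) was 0.024 without the 3, -0.011 without the top C1q high cell and 0.89 with a C1q threshold of 3, Lgals3 (0.64) was -0.11 as a mean over cells, -0.79 without the 3 top cells and -0.44 without the top C1q high cell, and Cd44 (-0.82) was -1.22 without the 3. For orthogonal against PD1d/IL-33 ACT in CD8 T cells, Spp1 (3.95) was 2.96 under the later filter, 3.47 with no filter on cells, 5.45 with a pseudocount of 1 CPM and 3.31 as a mean over cells. Lgals1 (0.56) was 0.38, 0.62, 0.71 and 0.62 under the later filter, no filter, TMM and without the 3 top cells, and Lgals3 (1.76) was 1.44, 1.90 and 1.55 under the later filter, TMM and the mean over cells. The share of all genes past 2-fold there (1.70%) was 0.521% with no filter on genes. Unthinned, 17.2% of CD8 T cells of orthogonal ACT on day 12 held a Spp1 UMI (thinned 8.89%), and with no filter on cells they held 44.4% of Spp1 UMIs (51.6%).

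Among values called 2-fold, Spp1 changed sign in 7. Smaller ratios that changed sign, such as orthogonal against PD1d/IL-2v ACT over all CD8 T cells, were not counted. Under the later filter, orthogonal against PD1d/IL-2v ACT in C1q low cells went from -1.43 to 0.010, and PD1d/IL-33 against PD1d/IL-2v ACT in CD4 T cells from -1.73 to 0.76. Without the 3 top cells, C1q high against low in PD1d/IL-2v ACT went from 1.77 to -1.06. Without the top cell of 1 group, that ratio was -1.21, the day 26 one of orthogonal ACT went from 1.17 to -0.66, day 12 against day 5 of orthogonal ACT in C1q high cells from 1.24 to -0.019, and PD1d/IL-33 against PD1d/IL-2v ACT in CD4 T cells from -1.73 to 0.94. The cause of these moves was not tested beyond the cells left out. In the C1q comparison of orthogonal ACT on day 12 the later filter, the doublet score and a threshold of 30 left under 20 cells and gave no value. With pooled mice and 1 library per group, none of the intervals covers the spread between mice.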
